A study of Rattus norvegicus with 23 samples.

Results

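The genes described here are 5 enzymes of cholesterol synthesis, Msmo1, Sqle, Fdps, Idi1 and Cyp51, and Insig1, a regulator of the same pathway. They were chosen as every array probe annotated to 1 of these gene symbols, which gave 6 probes, 1 for each gene, of 5088 probes on the array (4153 genes carried a symbol of their own). The probe identifiers were 17E06 (Msmo1), 17E07 (Sqle), 17D03 (Fdps), 17C01 (Idi1), 17C06 (Cyp51) and 36H12 (Insig1). RNA came from lumbar dorsal root ganglia (DRG, L4 and L5) of Long-Evans rats whose sciatic nerve was cut at postnatal day 20 to 24, the conditioning lesion that raises the capacity of these sensory neurons for axon growth. Ganglia were taken 4, 8, 12, 18, 24, 48, 148 or 296 h after the cut, with 3 arrays at each time and 2 at 296 h, 23 in all. Each array set lesioned DRG in Cy5 against intact DRG in Cy3, and every value below is log2 of lesioned over intact, so 0 means equal and 1 means a doubling.

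Several properties of the arrays bear on all values. The dyes were never exchanged and the direction of the deposited ratio was taken from the dye labels, so an effect of dye on a single probe cannot be told apart from an effect of the lesion at any 1 time. Although surgery and removal of ganglia are described for the treatment, other label fields speak of cultured DRG cells and of cAMP. In the last group, replicate 2 has 294 h as its time label and 296 h in its title. The labels do not say whether arrays of a time came from separate animals, so the p-values cover the spread among these samples alone, which may be technical. On 17 arrays, called full, 4945 to 5011 probes were measured and the SD of the log2 ratios was 0.51 to 0.91. On the other 6, called sparse, 2063 to 4353 probes were measured with an SD of 1.22 to 1.61. The sparse class held all 3 arrays at 148 h, replicates 2 and 3 at 48 h and replicate 2 at 296 h, so late times and sparse arrays largely overlapped. Ratios give no absolute level, so the tissue could not be checked by how abundant its marker genes were, and in whole ganglia fewer cells of a type and less RNA per cell cannot be told apart.

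Cholesterol is built from acetyl units through mevalonate, isoprenoid diphosphates, squalene and lanosterol. The enzymes of this route are transcribed together under the SREBP factors, which SCAP carries out of the endoplasmic reticulum when membrane sterol is low. Insig1 holds the SCAP complex in the endoplasmic reticulum when sterol is high and is itself a target of SREBP. In peripheral nerve and ganglia, sterol supplies the membranes of growing axons and the myelin made by Schwann cells.

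Promoter sequence was read for the members because the enzymes are textbook examples of joint control. The RefSeq promoter table (GRCr8) held 5 of the 6 genes. It did not list Sqle. Shown are the 250 bases before the start of Msmo1 and Fdps, the 2 genes that were higher at 24 h by the test below, and of Insig1, which was called lower at 148 h; capitals mark CCAAT or its reverse complement ATTGG, the CCAAT box bound by NF-Y.
Msmo1, chr16:29746863-29747112, plus strand: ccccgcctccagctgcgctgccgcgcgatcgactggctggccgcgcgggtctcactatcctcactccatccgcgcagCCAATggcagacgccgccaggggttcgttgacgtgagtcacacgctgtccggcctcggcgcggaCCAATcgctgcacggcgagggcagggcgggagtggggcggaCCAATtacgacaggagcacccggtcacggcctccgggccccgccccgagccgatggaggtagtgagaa
Fdps, chr2:176804817-176805066, minus strand: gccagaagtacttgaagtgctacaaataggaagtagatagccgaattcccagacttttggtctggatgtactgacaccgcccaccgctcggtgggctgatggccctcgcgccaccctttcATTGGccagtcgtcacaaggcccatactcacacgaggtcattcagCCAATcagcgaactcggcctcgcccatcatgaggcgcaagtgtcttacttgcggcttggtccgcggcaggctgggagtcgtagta
Insig1, chr4:8057770-8058019, minus strand: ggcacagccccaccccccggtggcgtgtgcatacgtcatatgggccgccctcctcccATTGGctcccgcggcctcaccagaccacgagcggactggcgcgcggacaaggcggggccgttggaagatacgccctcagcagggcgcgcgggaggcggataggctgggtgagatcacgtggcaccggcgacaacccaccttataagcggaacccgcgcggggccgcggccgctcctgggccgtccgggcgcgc

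On both strands, CCAAT was found 3 times in the Msmo1 window (starting at -173, -109 and -68 from the start of the gene), 2 times in Fdps (-130 and -85), 2 times in Idi1 (-66 and -35) and 1 time in Insig1 (-193), and it was not found in Cyp51. Of all 33469 promoters of this length, 34.0% held it. The GC box GGGCGG was found 3 times in Msmo1 and 1 time each in Fdps, Cyp51 and Insig1, and 30.5% of all promoters held it. The E-box CACGTG was found in Insig1 alone among the 5, at -79, and in 5.59% of all promoters. None of the 5 windows held the letters TCACNCCAC of a sterol regulatory element, which 0.974% of all promoters held. No matches of these motifs overlapped. Such matches describe letters only, and absence from these windows says nothing about the factors.

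Early in the pathway, Idi1 and Fdps make the isoprenoid precursors. Idi1, isopentenyl-diphosphate isomerase, had log2 ratios of -0.05, 0.33 and 0.07 at 4 h, 0.35, 0.19 and 0.09 at 8 h, 0.22, 0.88 and 0.54 at 12 h, and 0.79, 0.05 and 0.15 at 18 h. At 24 h it had -0.16, -0.26 and -0.13, at 48 h 0.22, -0.30 and 0.29, at 148 h -0.12, -0.20 and 0.38, and at 296 h 0.26 and 0.58. The 3 arrays at 12 h were all above 0 and all 3 at 24 h were below 0, so these times did not overlap. They were picked from the values, and the share of all probes that separate so between times was not counted. By limma with Benjamini-Hochberg adjustment, no single time of Idi1 passed 0.05, the lowest adjusted p being 0.241 at 296 h (log2 0.42 ± 0.22, SE).

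Fdps, farnesyl diphosphate synthase, stands at the branch between sterols and protein prenylation. Its ratios were 0.14, 0.23 and 0.40 at 4 h, 0.29, 0.36 and 0.05 at 8 h, 0.39, 0.46 and 0.75 at 12 h, 0.68, 0.40 and 0.24 at 18 h, and 1.02, 0.63 and 0.81 at 24 h. At 48 h it had 0.44, 0.50 and 0.10, at 148 h -0.20, 0.07 and -0.07, and at 296 h -0.14 and -0.19. Fdps was thus above 0 on all 15 arrays up to 24 h. Every array at 24 h also lay above every array at 48, 148 and 296 h. How many of all probes separated this way between times was not counted. Being above 0 on all 15 was uncommon on these arrays: 56 of the 4542 probes measured on all of them (1.23%) were. Its spread between arrays of 1 time was small, with an SD of 0.18 against a median of 0.54 over all probes, and 2.71% of probes had a smaller one.

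In the squalene and lanosterol steps, Sqle and Msmo1 were each above 0 on 14 of the 15 arrays up to 24 h, and Cyp51 on 6. The genes were not tested against each other. Sqle, squalene epoxidase, which catalyses a rate-limiting oxygenation, had 0.56, 0.58 and 0.34 at 4 h, -0.26, 0.04 and 0.36 at 8 h, 0.46, 0.49 and 0.65 at 12 h, 0.66, 0.17 and 0.35 at 18 h, and 1.27, 0.42 and 0.79 at 24 h. Later it had 0.48, -0.12 and -0.18 at 48 h, -0.16, 0.70 and -0.57 at 148 h, and 0.37 and 1.10 at 296 h. Sqle was above 0 on 14 of the 15 arrays up to 24 h, and at 148 h its 3 sparse arrays lay on both sides of 0.

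Msmo1, the methylsterol monooxygenase that removes methyl groups after lanosterol, had 0.88, 0.45 and 0.24 at 4 h, 0.42, 0.43 and 0.26 at 8 h, 0.88, 0.80 and 0.92 at 12 h, 1.07, 0.23 and -0.16 at 18 h, and 0.98, 0.84 and 1.01 at 24 h. At 48 h the values were 0.39, 0.35 and -0.15, at 148 h 0.27, 0.15 and -0.27, and at 296 h 0.68 and 0.59. The 6 arrays of 12 and 24 h lay within 0.80 and 1.01, while those of 18 h, taken between them, were spread from -0.16 to 1.07. Msmo1, Sqle and Fdps were each above 0 on all 6 arrays of 12 and 24 h, as were 8.66% of the 4737 probes measured on all 6.

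Cyp51, the lanosterol demethylase that acts earlier than Msmo1 on the same route, took another course. It had -0.24, -0.04 and -0.50 at 4 h, 0.50, 0.40 and -0.36 at 8 h, -0.22, -0.14 and 0.14 at 12 h, 0.01, 0.15 and 0.39 at 18 h, and -0.01, -0.31 and -0.22 at 24 h. Later values were -1.07, -1.11 and -0.43 at 48 h, -1.31, -0.74 and 0.25 at 148 h, and -0.38 and -0.27 at 296 h. Cyp51 was above 0 on 6 of the 15 arrays up to 24 h and below 0 on 7 of the 8 later arrays. All 3 arrays at 48 h lay below all 3 at 18 h. These times were picked from the values, and the share of all probes that separate so was not counted.

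Insig1 was low on nearly every array and was the most variable of the 6. Its ratios were -1.48, -1.64 and -0.89 at 4 h, -2.22, -0.89 and -0.79 at 8 h, -2.22 and -0.996 at 12 h, -1.53, -1.61 and -1.91 at 18 h, and -0.49 and -0.84 at 24 h. They were -3.23, -2.51 and -0.73 at 48 h, -6.10 and -4.48 at 148 h, and 2.96 and -3.09 at 296 h. The probe had no value on replicate 1 at 12 h, replicate 3 at 24 h and replicate 3 at 148 h. It was below 0 on 19 of the 20 arrays that measured it, the exception being replicate 1 at 296 h, a full array. Up to 24 h it was below 0 on the 13 arrays that measured it, and 166 of the 4620 probes measured on all of those 13 (3.59%) were below 0 on every one. The SD between its arrays of 1 time was 1.46, larger than that of 97.1% of probes.

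**Figure D1:**
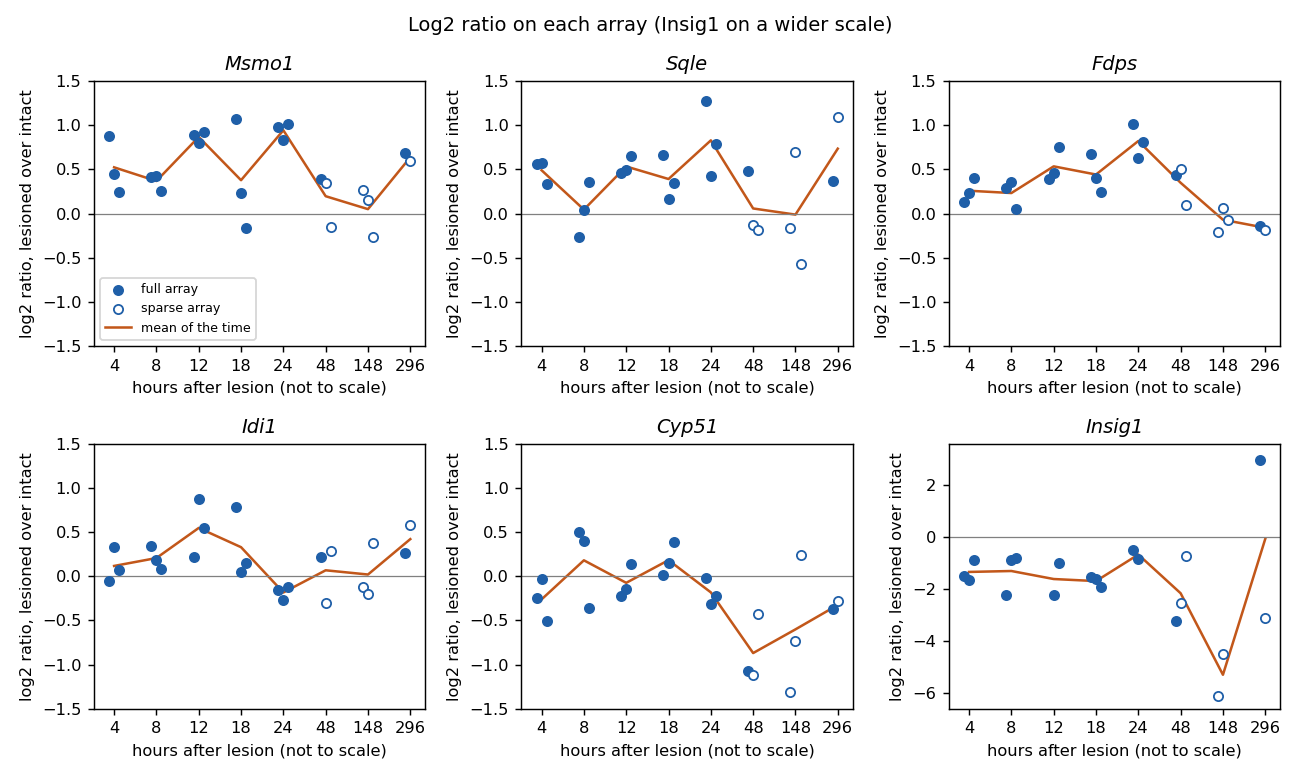
Log2 ratio of lesioned over intact DRG (vertical axis) on each array by hours after the lesion (horizontal axis, not to scale), 1 panel per gene; points are arrays, filled for full and open for sparse arrays, and lines join the means. Msmo1, Sqle and Fdps lay above 0 on all 6 arrays of 12 and 24 h, Cyp51 lay lowest at 48 h, and Insig1, on a wider scale, lay below 0 on 19 of 20 arrays.

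The first question was which members differed between lesioned and intact DRG at a given time. At 24 h, Msmo1 was 1.92-fold higher (log2 0.94 ± 0.09, SD, n = 3) and Fdps 1.77-fold higher (0.82 ± 0.19), and both rose by the test, with limma SEs of 0.19 and 0.14 and adjusted p of 0.0171 and 0.00609. Sqle was 1.78-fold higher (0.83 ± 0.43, SD, n = 3) with an adjusted p of 0.0725. Hence 2 of 6 members were called higher at 24 h, against 0.679% of the 5011 probes tested. Members were chosen with earlier results of these data known. Such shares, here and below, are therefore no test of the members as a group. Idi1 and Cyp51 each had log2 -0.18 and Insig1 -0.66 at that time, with none of these passing the test. The Msmo1 call was lost when any of the 3 arrays at 24 h was left out (adjusted p 0.0747 to 0.148) and the Fdps call when replicate 1 was (0.0969).

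A fit with array weights, which lets noisy arrays count less, was read beside the fit with equal weights because the sparse arrays had the larger spread. With weights, Msmo1 (adjusted p 0.00353), Fdps (0.00110) and Sqle (0.0130) rose at 24 h, 3 of 6 members against 2.27% of probes. At 12 h, equal weights called none of the 6 (0.139% of 5020 probes in either direction), whereas array weights called 4 higher, against 1.65% of probes, and 1 lower, against 1.95%. The 4 were Msmo1 (log2 0.86, adjusted p 0.00174), Fdps (0.58, 0.00235), Idi1 (0.65, 0.00658) and Sqle (0.55, 0.0310), and the lower was Insig1 (-1.61, 0.0348). At 18 h, equal weights called none (0.379% in either direction), and array weights called Fdps higher (0.48, 0.0284), 1 of 6 against 0.818%. At 4 h and 8 h none of the 6 was called, where 0.538% and 0.42% of probes were.

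At 48 h Cyp51 was 1.83-fold lower in lesioned than in intact DRG (log2 -0.87 ± 0.39, SD, n = 3; limma SE 0.23, adjusted p 0.0177). That made 1 of 6 members called lower against 7.69% of 4471 probes, and with array weights the adjusted p was 0.0731, with 2.01% of probes called lower. Without replicate 1 at 48 h the adjusted p of Cyp51 was 0.0843, and without replicate 2 it was 0.106. In Insig1 the mean at 48 h was -2.15 ± 1.29 (SD, n = 3, adjusted p 0.0691).

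At 148 h Insig1 was 39.1-fold lower (log2 -5.29 ± 1.15, SD, n = 2, both sparse arrays; limma SE 0.93, adjusted p 0.000770), the 1 member of 6 called lower where 12.9% of 3187 probes were. With array weights the log2 value was -5.01 (adjusted p 0.0174), with 3.83% of probes called lower. When each array was scaled to the same spread it was -2.62 with an adjusted p of 0.0693. No intensities were used, so the signal over background of the probe on these arrays is unknown. Cyp51 had -0.60 at 148 h (adjusted p 0.0601). Without replicate 3 at 148 h, the only array of that time above 0, it was -1.02 with an adjusted p of 0.00419. At 296 h none of the 6 was called, against 8.65% of 2833 probes, and Insig1 was split between 2.96 on the full array and -3.09 on the sparse array, the value without replicate 1 (adjusted p 0.00911).

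The second question was whether a member differed over the whole course. In the mean of the 8 times, 4 members rose: Msmo1 (log2 0.50 ± 0.07, SE, adjusted p 2.72e-05), Sqle (0.38 ± 0.08, 0.00106), Fdps (0.30 ± 0.05, 0.000168) and Idi1 (0.19 ± 0.07, 0.0248). The other 2 fell, Insig1 by 1.76 ± 0.30 (adjusted p 0.000264) and Cyp51 by 0.24 ± 0.09 (0.0264). These 4 and 2 of 6 stood against 21.9% of 2327 probes called higher and 25.2% called lower, so calls were frequent in this test. With array weights 3 members were higher (18.5% of probes) and 2 were lower (21.5%), Idi1 having an adjusted p of 0.0541. With full arrays only, 148 h drops out and replicate 1 alone remains at 48 h and at 296 h. Insig1 then had -0.98 in the mean of the remaining times. With array weights joined with array class it had -1.24 in the mean of the 8 times (adjusted p 0.102). Idi1 also lost its call without replicate 2 at 296 h (0.0675), and Cyp51 without replicate 3 at 8 h (0.0506).

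**Figure D2:**
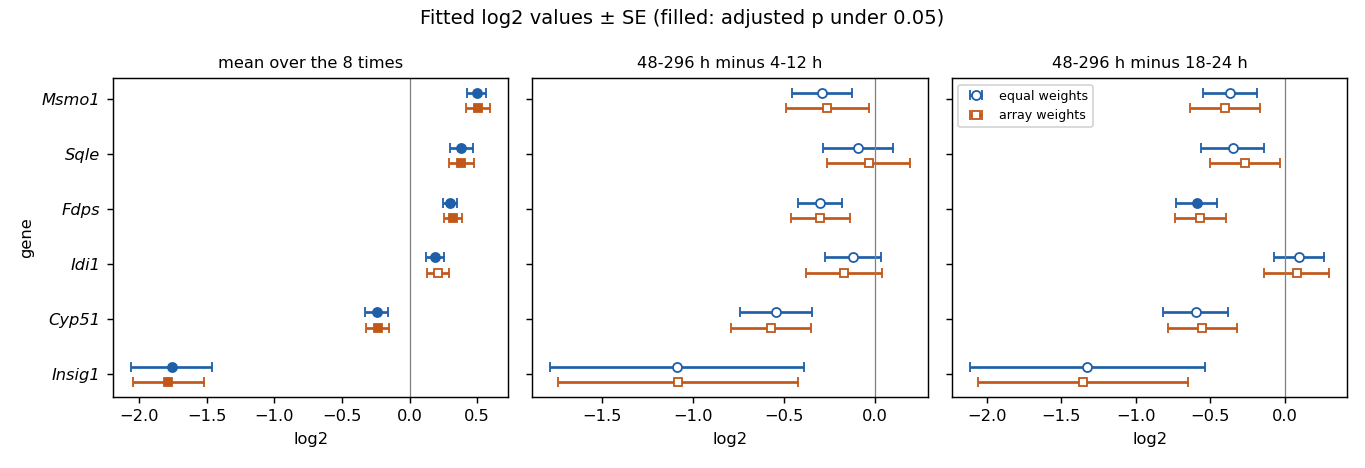
Fitted log2 values (horizontal axes) for the 6 genes in the mean over the 8 times (left), in 48 to 296 h minus 4 to 12 h (middle) and in 48 to 296 h minus 18 to 24 h (right); circles are equal weights, squares array weights, bars the SE, and filled symbols have an adjusted p under 0.05. All 6 circles are filled on the left, none in the middle, and Fdps alone on the right.

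The third question was whether the lesion effect differed between times, where a constant dye effect of a probe cancels. Fdps fell between 18 to 24 h and 48 to 296 h, with a difference of log2 -0.59 ± 0.13 (SE, adjusted p 0.0201), 1 of 6 members against 2.1% of 2333 probes called lower. With array weights the difference was -0.57 with an adjusted p of 0.0690, where 0.986% of probes were called lower. It missed the threshold without replicate 1 at 18 h (adjusted p 0.0630), replicate 2 at 18 h (0.0509) or replicate 2 at 296 h (0.0652). Sqle had -0.35 ± 0.21 and Msmo1 -0.37 ± 0.18 in the same contrast, and neither passed.

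None of the 6 was called in 18 and 24 h minus 4 and 8 h (0.101% of 4949 probes in either direction), in 48 to 296 h minus 4 to 12 h (11.3% of 2331) or in the F-test of equal times (4.21% of 2327). The lowest adjusted p of these were 0.0793 for Cyp51 in 48 to 296 h minus 4 to 12 h (log2 -0.55 ± 0.20, SE) and 0.0822 for Fdps in the F-test. Insig1 had -1.09 ± 0.70 in 48 to 296 h minus 4 to 12 h. Its value rested on the 2 arrays at 296 h, being -2.10 with an adjusted p of 0.00423 without replicate 1 and -0.08 (0.940) without replicate 2. With full arrays only, the late side lost 148 h and held replicate 1 alone at 48 h and at 296 h. That changed contrast gave 1.28. With scaled arrays, which keep all late times, the sign turned as well, to 0.78 (adjusted p 0.577). Without replicate 3 at 148 h, Cyp51 was -0.69 with an adjusted p of 0.0142 in that contrast.

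The other enzymes of the pathway were taken from a list of 16 genes, of which 7 were among the annotated symbols: Mvk, Mvd, Fdft1, Lss, Hsd17b7, Ebp and Dhcr7. At 24 h none of the 7 passed the test, their values running from 0.00 in Ebp to 0.54 in Hsd17b7 with a median of 0.28, against a median of 0.02 over all probes tested. At 12 h none passed either, with a median of 0.27, and Mvk was lowest at -0.38. For all 12 cholesterol synthesis genes, the 5 members included, the median was 0.32 at 12 h and 0.33 at 24 h. All of these but Ebp (0.05 at 12 h and 0.00 at 24 h) had identifiers starting with 17. The 91 probes of that number other than the 5 members had medians of 0.04 at 12 h and 0.09 at 24 h. Of these 91, 54.9% and 64.8% had means above 0. The part of the shared number in the values of the 7 was not tested. At 148 h, Lss, the lanosterol synthase that makes the substrate of Cyp51, rose by log2 2.34 ± 0.37 (SE, n = 2, adjusted p 0.000243; 0.0119 with array weights), 1 of the 5 tested. Over all 3187 probes tested at 148 h 15.8% were called higher, and 4.93% with array weights, so 1 call among 5 is close to the share of all probes with equal weights.

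**Figure D3:**
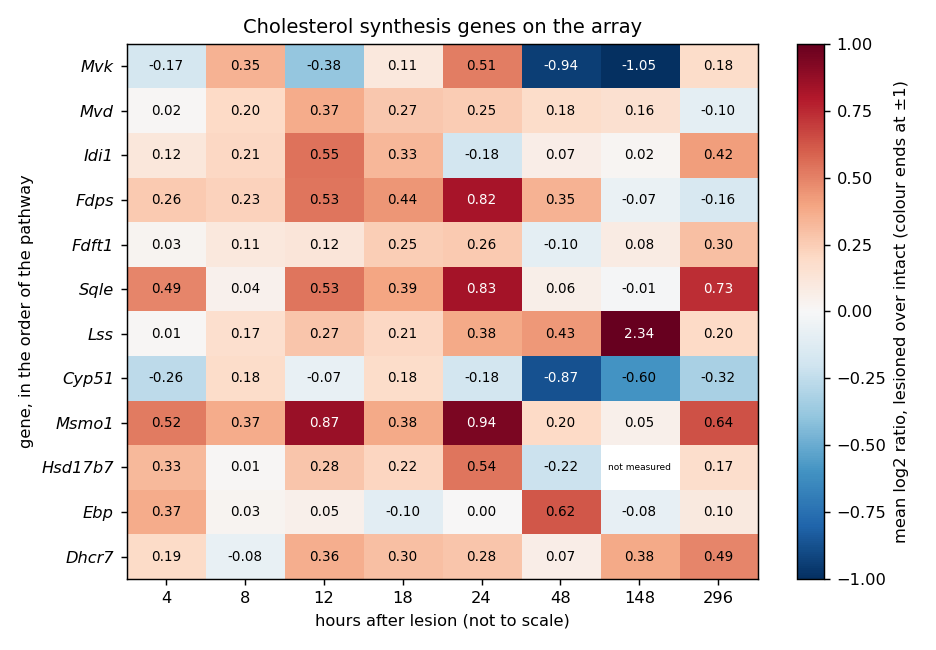
Mean log2 ratio of lesioned over intact DRG for the 12 cholesterol synthesis genes on the array (down the page in the order of the pathway) at the 8 times (across, not to scale); the printed number is the mean and the colour scale ends at ±1. At 24 h Msmo1 (0.94), Sqle (0.83) and Fdps (0.82) were the highest, and at 148 h Lss (2.34) was the highest.

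Hmgcs1, Srebf2 and Insig2 were not among the annotated symbols of the array. Srebf1, a SREBP gene, had log2 0.12 ± 0.22 (SE) at 24 h and rose by 1.20 ± 0.27 at 148 h (n = 2, adjusted p 0.00417; 0.110 with array weights). Of the sensing and uptake list 4 of 14 genes were on the array, and none passed at 12 or 24 h. The lipoprotein receptor gene Vldlr was called higher at 148 h (1.49, adjusted p 0.0346, and 0.370 with weights). Its 3 arrays there, all sparse, ran from -0.72 to 3.78 (SD 2.25), so they did not share a direction. Lipa, the lysosomal lipase that frees sterol from esters, rose at 296 h (1.14, adjusted p 0.00872, and 0.274 with weights). It also rose in the mean (0.30, 0.00163, and 0.0143 with weights). Of this list, 2 of 3 tested genes rose at 148 h, 1 of 3 at 296 h and 1 of 2 in the mean. Of all probes, 15.8%, 4.52% and 21.9% were called higher in these tests. With array weights none of the 3 rose at 148 h or at 296 h. By that fit 1 of 2 rose in the mean, against 18.5% of probes.

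Neighbouring pathways were mixed. In the fatty acid list (9 of 13 genes on the array), Acly, which makes cytosolic acetyl-CoA for both pathways, rose in the mean of the times (log2 0.37, adjusted p 0.000382), and Me1, the malic enzyme, at 148 h (2.08, 0.00162), whereas Fasn, the fatty acid synthase, fell by 0.43 in the mean (0.00556). In the mean 1 of 6 tested fatty acid genes rose and 1 fell, where 21.9% of probes were called higher and 25.2% lower. Acaca had several probes, which disagreed in the mean. The probe read for it was not called (-0.23, adjusted p 0.268), while another was lower (-0.39, 0.00513) and another higher (0.31, 0.0139). At 148 h 3 of 8 fatty acid genes rose, where 15.8% of probes were called higher. Of these 3, Srebf1 is also on the sensing and uptake list and was counted there too. With array weights 1 of 8 rose at 148 h, against 4.93%. For sterol efflux and oxidation 12 of 17 genes were on the array. Nr1h2, a sterol-sensing nuclear receptor, rose at 48 h (1.29, adjusted p 0.0211; 0.184 with weights), Star, the mitochondrial sterol carrier, at 148 h (0.97, 0.00698; 0.173 with weights), and Apoc1 fell by 1.52 at 148 h (0.00589; 0.0373 with weights). That was 1 of 9 tested genes higher at 48 h, against 7.92% of probes. At 148 h 1 of 7 rose and 1 fell, against 15.8% and 12.9%. Prenylation, which uses the product of Fdps, had 5 of 7 genes on the array. Among them Rabggta, a subunit of the Rab prenyltransferase, rose in 48 to 296 h minus 4 to 12 h (0.82, 0.00295). Chm, its escort protein, fell by 0.54 in the mean (0.000197). In the first of these tests 1 of 3 tested genes rose, against 7.04% of probes. In the mean 1 of 3 rose and 1 fell, where 21.9% of probes were called higher and 25.2% lower. With array weights 0 of 3 rose and 1 fell in the mean, against 18.5% and 21.5%.

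The probe of Insig1 shared the leading number 36 of its identifier with 95 other probes, and these were low as well. Their median log2 ratio was -0.31, -0.40, -0.24, -0.40, -0.46, -0.89, -0.65 and -0.09 over the 8 times. Of the 96 probes with this number, 11 (11.5%) had a mean beyond 1 in either direction up to 24 h, against 48 probes (0.983%) with other numbers, and by this share it ranked 2 of the 53 numbers. Insig1 lay below the median of these probes for the same time on all but 2 of its 20 arrays, replicate 3 at 48 h and replicate 1 at 296 h. When each array was centred separately for every number, Insig1 kept -1.33 in the mean (adjusted p 0.00458) and -4.71 at 148 h (0.00336). The part of the shared number in its low ratios was otherwise not tested. The other 5 members shared the number 17, whose 91 other probes had medians from 0.04 to 0.17, and with the same centring Idi1 had 0.09 in the mean (adjusted p 0.316) while no other call among the 6 was lost.

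**Figure D4:**
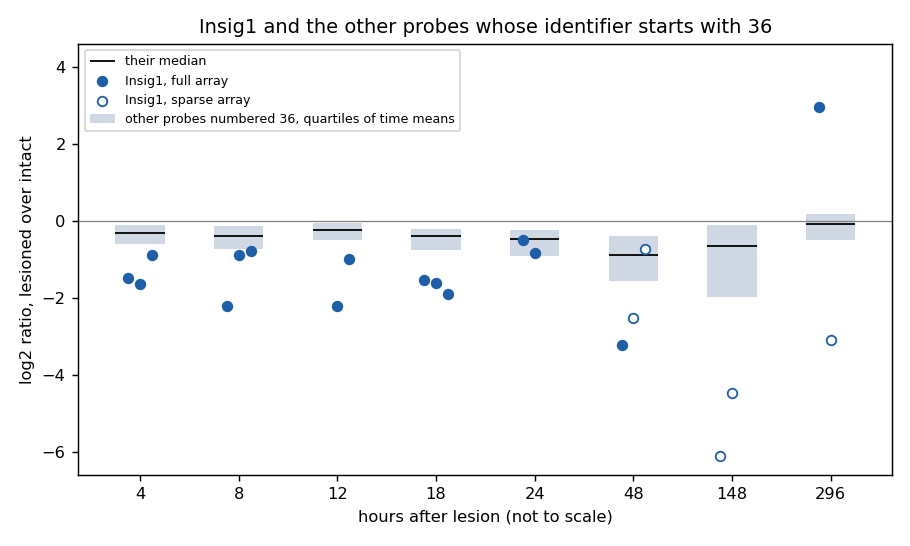
Log2 ratio of lesioned over intact DRG (vertical axis) by hours after the lesion (horizontal axis, not to scale) for Insig1 on each array (points, filled for full and open for sparse arrays), with the quartiles (grey) and median (line) of the time means of the 95 other probes whose identifier starts with 36. The medians lay between -0.89 and -0.09, and Insig1 lay at -6.10 and -4.48 at 148 h.

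Across arrays, members did not all run together. Msmo1 correlated with Sqle (Spearman rho 0.67, Pearson r 0.65 over 23 arrays, and r 0.56 without the 2 arrays farthest from the median of Msmo1) and with Fdps (rho 0.56, r 0.58, and r 0.50 without 2). Sqle and Fdps had rho 0.36, Idi1 and Cyp51 0.42, and Idi1 with Fdps -0.15. Insig1 had rho 0.26 or less in size with each of the other 5 over 20 arrays. Over the 17 full arrays rho was 0.80 for Msmo1 and Sqle, 0.56 for Msmo1 and Fdps, and 0.55 for Sqle and Fdps. It was 0.25 for Idi1 and Cyp51 and -0.12 for Idi1 and Fdps. Over the 15 full arrays with Insig1, its rho ran from -0.475 with Idi1 to 0.28 with Msmo1. These are descriptions over arrays that share times and array class. Among 4074 other probes, Msmo1 was most like Syp (rho 0.77), Ywhag (0.75) and a Ccnd1 probe (0.75), with Sqle at rank 14 and Fdps at rank 77. Most like Fdps were Atf4 (0.81), Sh2b2 (0.80, 22 arrays) and Tsnax (0.73), most like Sqle were Orm1 (0.78, 19 arrays), Capns1 (0.72) and Psmd1 (0.70), and most like Idi1 were Hnrnpk (0.72), Cycs (0.66) and Spp1 (0.66, 20 arrays). Cyp51 was most like Map1b (0.72, 22 arrays), Spnb1 (0.69) and Or4b1d (0.68, 21 arrays), and Insig1, among 2867 probes, most like Fgfr3 (0.80, 19 arrays), Rab13 (0.76, 18 arrays) and Gpt (0.71, 19 arrays).

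Marker genes of cell types in the ganglion moved with some of the times. At 24 h, 1 of 8 neuronal markers rose and 1 fell (median log2 0.18), and none of 7 myelinating Schwann cell markers (median 0.28), 6 satellite glia markers (0.03), 6 macrophage markers (0.14), 6 fibroblast markers (-0.12), 5 endothelial markers (-0.12), 5 adipocyte markers (-0.17) or 5 skeletal muscle markers (-0.06) passed. At that time 0.679% of probes were called higher and 0.738% lower. With array weights, as used for the members above, 2 of 7 Schwann cell markers (Pmp22, adjusted p 0.0450, and Prx, 0.00657) rose at 24 h, against 2.27% of probes, and 1 satellite glia and 1 muscle marker fell, against 3.91%. At 12 h the same 2 Schwann cell markers rose with array weights (0.00235 and 0.00169; list median 0.46), as did 1 neuronal, 1 macrophage and 1 fibroblast marker, while 1 neuronal and 1 endothelial marker fell, and none passed with equal weights. At 48 h, 2 of 8 neuronal markers fell (median -0.32), 1 of 6 fibroblast markers fell (-0.16), 1 of 5 macrophage (0.49), 1 of 7 Schwann cell (-0.25), 1 of 5 adipocyte (-0.57) and 1 of 5 muscle markers (-0.23) rose, and none of 6 satellite glia (0.18) or 5 endothelial markers (-0.04) passed; 7.92% of probes were called higher and 7.69% lower. At 148 h, the time of the lowest Insig1 ratios, 6 of 8 neuronal markers fell (-0.77), 2 of 3 macrophage markers rose (2.04), 2 Schwann cell markers rose and 1 fell of 6 (-0.04), 2 of 4 muscle markers rose (1.27), 2 of 6 fibroblast markers rose (0.65), 1 of 3 endothelial markers fell (-0.50), and none of 5 satellite glia (0.07) or 2 adipocyte markers (0.35) passed, where 15.8% of probes were called higher and 12.9% lower. With array weights the calls at 148 h were 2 neuronal markers lower, 2 macrophage markers higher and 1 Schwann cell marker higher. By that fit 4.93% of probes were called higher and 3.83% lower. At 48 h the calls with array weights were 1 neuronal marker lower, against 2.01%, and 1 macrophage marker higher, against 1.95%. At 12 h array weights called 1.65% of probes higher and 1.95% lower. In 48 to 296 h minus 18 to 24 h, where Fdps fell, 3 of 8 neuronal and 2 of 5 Schwann cell markers fell. Of macrophage markers 2 of 2 rose, and 1 of 5 fibroblast markers rose. None of 5 satellite glia, 2 endothelial, 1 adipocyte or 2 muscle markers passed. In this contrast 3.34% of probes were called higher and 2.1% lower. With array weights 2 neuronal markers fell and 2 macrophage markers rose, against 0.986% lower and 2.19% higher. The part of the markers in the values of the 6 genes was not tested.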

How the data were processed

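For each probe and array the authors deposited 1 linear ratio of the 2 dye channels, from spotted oligonucleotide arrays with dendrimer labelling. How scans were read, background-corrected and normalized is not given in the sources used here. Intensities were not part of the analysis, so the number of arrays limits the precision. Ratios were converted to log2 with no offset. By Entrez identifier 4375 probes were found in the reference gene table, 4423 probes had 1 gene symbol, 2 several and 663 none, and no member's symbol changed. Arrays with over 200 missing probes were called sparse.

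A mean for each time was fitted over all 23 arrays with limma 3.58.1 in R 4.3.3 (lmFit, eBayes) and tested two-sided, with Benjamini-Hochberg adjustment over all probes measured on at least 2 arrays of each time used, and a threshold of 0.05. The 13 tests were the 8 times, their mean, 3 differences between times and a moderated F-test. A gene with several probes was read by 1 probe. The fit was tested on simulated data. All 6 members were named, Hmgcs1, Srebf1, Srebf2 and Insig2 were looked up whatever their values, and other listed genes were named where they passed; the 3 most alike probes were taken by Spearman correlation, and not every listed gene that passed a test is reported here. Members and lists were chosen with earlier results of these data known. Alternatives were array weights, centring, scaling, filters on missing values, robust variance, the mean of a gene's probes, a replicate block, array class, fewer arrays, and, chosen after seeing the data, centring by identifier number and array weights joined with array class.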

Additional observations from a re-analysis of the deposited data

Results flagged for a closer look

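Fdps differed between times by the test of the difference itself, with log2 -0.59 for 48, 148 and 296 h minus 18 and 24 h (limma, adjusted p 0.0201; 0.0690 with array weights). Fdps, Idi1 and Cyp51 each had times at which every array lay above 0 and times at which every array lay below 0, and these differences were not tested. Nor was it counted how many of all probes had such times. Between the highest of the times above 0 and the lowest of the times below 0, the differences were those of Fdps at 296 h minus 24 h (log2 -0.98), Idi1 at 24 h minus 12 h (-0.73) and Cyp51 at 48 h minus 18 h (-1.05).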

How the results depend on the processing

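The number of the 6 genes past the adjusted p of 0.05 was recomputed for each of the 13 tests, and the cause of the changes was not tested unless the construction of the fit shows it. With array weights it was 5 at 12 h (0 with equal weights), 1 at 18 h (0), 0 at 48 h (1) and 0 in 48 to 296 h minus 18 and 24 h (1). With scaled arrays it was 2 at 12 h, 1 at 18 h, 0 at 48 h and 0 at 148 h (1 otherwise), and with median centring 2 at 148 h. With array class as a block it was 0 at 48 h, 0 at 148 h and 0 in 48 to 296 h minus 18 and 24 h. With full arrays only, which leaves no array at 148 h, it was 1 at 4 h, 1 at 18 h, 2 at 48 h, 1 at 296 h, 1 in the F-test and 0 in 48 to 296 h minus 18 and 24 h. Only probes measured on every array gave 0 at 148 h, since Insig1 lacks 1 array there. With only the arrays of the time in the fit, fewer samples, it was 0 at 24 h (2), 0 at 48 h and 0 at 148 h. Array weights joined with array class, chosen after seeing the data, gave 5 at 12 h, 1 at 18 h, 0 at 48 h, 0 at 148 h, 0 in 48 to 296 h minus 18 and 24 h, and 1 in the mean of the times (6), where Msmo1 alone stayed past the threshold. Insig1 at 296 h changed direction with full arrays only, to log2 2.96 (adjusted p 0.0476), since 1 array then remains. Without passing a test, Insig1 also turned from negative to positive in 48 to 296 h minus 4 to 12 h (1.28 with full arrays only, 0.78 scaled). The same held in 48 to 296 h minus 18 and 24 h (1.04 and 0.50). In both contrasts the value with full arrays only leaves out 148 h. With array class as a block Insig1 was 0.12 and -0.12 in these contrasts.

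Leaving out 1 array at a time gave 0 to 1 at 24 h, 0 to 1 at 48 h, 1 to 2 at 148 h, 0 to 1 at 296 h, 5 to 6 in the mean, 0 to 1 in 48 to 296 h minus 4 to 12 h, 0 to 2 in 48 to 296 h minus 18 and 24 h, and 0 to 1 in the F-test, where Insig1 was called without either array at 296 h. The added calls in the 2 differences came from Insig1 without replicate 1 at 296 h and from Cyp51 without replicate 3 at 148 h. In the other tests the number was 0. A lone remaining array was assumed to vary like the other times. With the replicate number as a block, no call changed in 78 of 78 comparisons of a gene and a test. Arrays of the same number at other times did not deviate together (77 pairs, median r -0.01, from -0.14 to 0.12, 4 pairs over 0.1), so the numbers were not taken as pairs. Robust variance, at least 1 array per time and the mean of a gene's probes changed no call either.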
